A study of Mus musculus with 10 samples.

Results

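The 955 regions described here carried a peak of dimethylated histone H3 lysine 4 (H3K4me2) in both libraries of naive T cells and both libraries of group 2 innate lymphoid cells (ILC2s), and in neither library of T helper 2 (Th2) cells. They were found by merging the peaks of these 6 libraries wherever they lay within 500 bp, which gave 27854 regions, so the members made up 3.43% of all regions. They were 7.06% of the 13520 regions called in all 4 naive T and ILC2 libraries. The members were chosen by the presence of these peaks and the absence of Th2 peaks, so neither is a result. The members were split by their mean height over the 4 libraries, where the height of a region in a library is the normalized tag count of its tallest peak, in tags per 10000000. There were 331 members with a mean under 80 tags, near the minimum of about 40 tags that a peak needed, and 624 taller ones. The count depended on how heights were compared: it was 481 when the tag minimum was scaled to the height of each library at regions called in all 6, an alternative chosen after seeing the data. It was 123 when each list was cut to the same number of peaks, and 96 when every naive T and ILC2 library had to reach 80 tags. Leaving out the lavage library of naive T cells gave 2507, and leaving out that of Th2 cells gave 1501.

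The series asks how the chromatin of ILC2s relates to that of T cells in allergic airway inflammation. All cells were lymphocytes sorted by flow cytometry from Gata3-YFP/YFP mice, which carry a fluorescent reporter of the transcription factor Gata3, and all of these mice had airway inflammation. Naive T cells, Th2 cells and ILC2s gave 2 libraries each, with replicate 1 taken from bronchoalveolar lavage and replicate 2 from mediastinal lymph nodes, and paired values below are in that order. Spleen and thymus CD4+ lymphocytes, with 1 library each, were not used to choose the members. The labels give neither the ages nor the sort gates, and do not say whether animals were pooled or shared between libraries. P-values therefore measure only the spread between these libraries.

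H3K4me2 lies at promoters and enhancers that are active or poised, and a peak tells where such an element is marked rather than how much RNA its gene makes. Naive T cells circulate through lymphoid organs before meeting antigen, and Th2 cells are their descendants that secrete interleukins 4, 5 and 13. ILC2s secrete many of the same cytokines without an antigen receptor. Nearest genes are given by position alone and need not be the genes that a region controls.

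The libraries differed in ways that touch the members. The share of tags in peaks, the authors' estimate of precipitation efficiency, was 28.7% and 29.3% in the Th2 libraries against 37.3% to 53.7% in the naive T and ILC2 libraries. Total tags ran from 11870820 in the Th2 library of the lymph node to 24945548 in the ILC2 library of the lavage. The naive T library of the lavage stood apart from that of the lymph node. The summed height at the 7 naive T cell markers was 4738.0 tags in the former and 14695.6 in the latter. It was 3556.4 and 3851.4 in Th2 cells and 4725.4 and 5225.1 in ILC2s, with all 7 markers called in each of these libraries. The lavage library of naive T cells also had peaks at Il4 (187.7 tags) and Il13 (38.9 tags), which the lymph node library lacked. The Il13 peak lay just under the nominal minimum of 40.1 tags, and neither naive T library had a peak at Il5. The ILC2 libraries were low at the 7 T cell markers, summing to 1256.3 and 1350.0 tags against 8727.2 to 14835.2 in naive T and Th2 cells. Cd8a, a marker of CD8 T cells and of immature thymocytes, had a peak in the thymus library. Cd8b1, the other CD8 marker, had 3767.0 tags there, 104.4 in the lymph node library of naive T cells and 82.0 in the spleen. Both ILC2 libraries had peaks at the Y-linked genes Ddx3y (170.8 and 128.3 tags), Eif2s3y and Kdm5d and none at Xist, the RNA gene of the inactive X chromosome. The other 6 libraries had Xist peaks of 155.0 to 727.2 tags and none at these 3 Y-linked genes, so sex and cell type cannot be told apart in a comparison of ILC2s with naive T cells.

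Promoter sequences are shown for the 6 tallest members that hold a gene start, because these are the members whose gene is given by sequence position and not by distance alone. Each runs from 250 bases before to 50 bases after a start in RefSeq on GRCm38.p6, 5′ to 3′ on the strand of the gene. Capitals mark matches, on either strand, to 5 motifs: AGATAA for GATA factors, TGTGGT for RUNX factors, TCAAAG for TCF and LEF factors, CGGAAG for ETS factors and GGGCGG for the GC box. Matches of different motifs can overlap. Windows with no capitals hold none of the 5.
Irs2 (chr8:11008880-11009179, minus strand): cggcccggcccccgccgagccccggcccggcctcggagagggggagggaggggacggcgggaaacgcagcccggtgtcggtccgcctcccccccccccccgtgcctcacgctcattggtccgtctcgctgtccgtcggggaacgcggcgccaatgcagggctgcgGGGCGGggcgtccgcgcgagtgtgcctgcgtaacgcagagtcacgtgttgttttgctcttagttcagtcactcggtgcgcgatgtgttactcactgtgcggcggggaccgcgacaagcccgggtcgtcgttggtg
Gm51896, a long non-coding RNA gene within Galnt10 (chr11:57671001-57671300, minus strand): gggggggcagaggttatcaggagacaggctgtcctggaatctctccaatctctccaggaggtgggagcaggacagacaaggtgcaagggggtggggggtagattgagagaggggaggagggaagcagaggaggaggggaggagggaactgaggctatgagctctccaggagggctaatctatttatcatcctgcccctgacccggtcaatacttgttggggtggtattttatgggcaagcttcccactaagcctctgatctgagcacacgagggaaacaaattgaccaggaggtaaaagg
Tnfrsf1a (chr6:125349473-125349772, plus strand): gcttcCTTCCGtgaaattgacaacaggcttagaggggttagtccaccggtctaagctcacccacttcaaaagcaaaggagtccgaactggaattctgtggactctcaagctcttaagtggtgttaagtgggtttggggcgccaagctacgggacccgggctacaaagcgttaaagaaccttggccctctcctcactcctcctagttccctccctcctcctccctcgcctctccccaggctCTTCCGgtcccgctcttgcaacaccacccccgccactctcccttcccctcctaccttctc
Vipr2 (chr12:116077476-116077775, plus strand): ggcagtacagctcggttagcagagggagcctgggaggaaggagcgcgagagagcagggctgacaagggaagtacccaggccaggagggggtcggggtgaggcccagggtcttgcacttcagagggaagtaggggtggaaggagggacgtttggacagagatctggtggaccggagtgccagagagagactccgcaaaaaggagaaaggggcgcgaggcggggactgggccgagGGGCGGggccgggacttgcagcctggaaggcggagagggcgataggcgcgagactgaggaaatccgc
Rnf128 (chrX:139610370-139610669, plus strand): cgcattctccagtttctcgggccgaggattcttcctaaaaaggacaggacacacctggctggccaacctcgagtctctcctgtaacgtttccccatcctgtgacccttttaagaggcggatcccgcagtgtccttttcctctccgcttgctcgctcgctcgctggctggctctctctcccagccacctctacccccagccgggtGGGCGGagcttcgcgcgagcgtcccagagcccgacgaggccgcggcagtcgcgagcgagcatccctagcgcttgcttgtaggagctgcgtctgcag
Fat4 (chr3:38886690-38886989, plus strand): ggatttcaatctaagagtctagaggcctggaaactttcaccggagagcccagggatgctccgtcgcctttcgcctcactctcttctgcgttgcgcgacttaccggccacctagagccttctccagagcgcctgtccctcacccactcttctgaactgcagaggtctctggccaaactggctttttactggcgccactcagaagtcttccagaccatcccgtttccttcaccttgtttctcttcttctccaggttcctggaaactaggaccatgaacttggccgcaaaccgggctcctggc

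The share of regions without a Th2 peak was lower the taller the region stood in the other cells. Of the regions called in all 4 naive T and ILC2 libraries, 55.8% of those with a mean under 60 tags were members, 44.2% of those from 60 to 80, 31.2% from 80 to 100 and 18.8% from 100 to 120. The share was 6.5% from 120 to 160 tags, 1.65% from 160 to 240, and 0.297% (16 of 5382) from 240 tags up. The median mean height was 90.4 tags in the members and 226.4 in the 11669 regions called in all 6 libraries. Members just under the split at 80 were a region with no gene within 100 kb (79.9 tags) and one over Atp8a2, and those just over it lay over Rab23 and near Psma1, all 3 of which round to 80 tags.

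**Figure D1:**
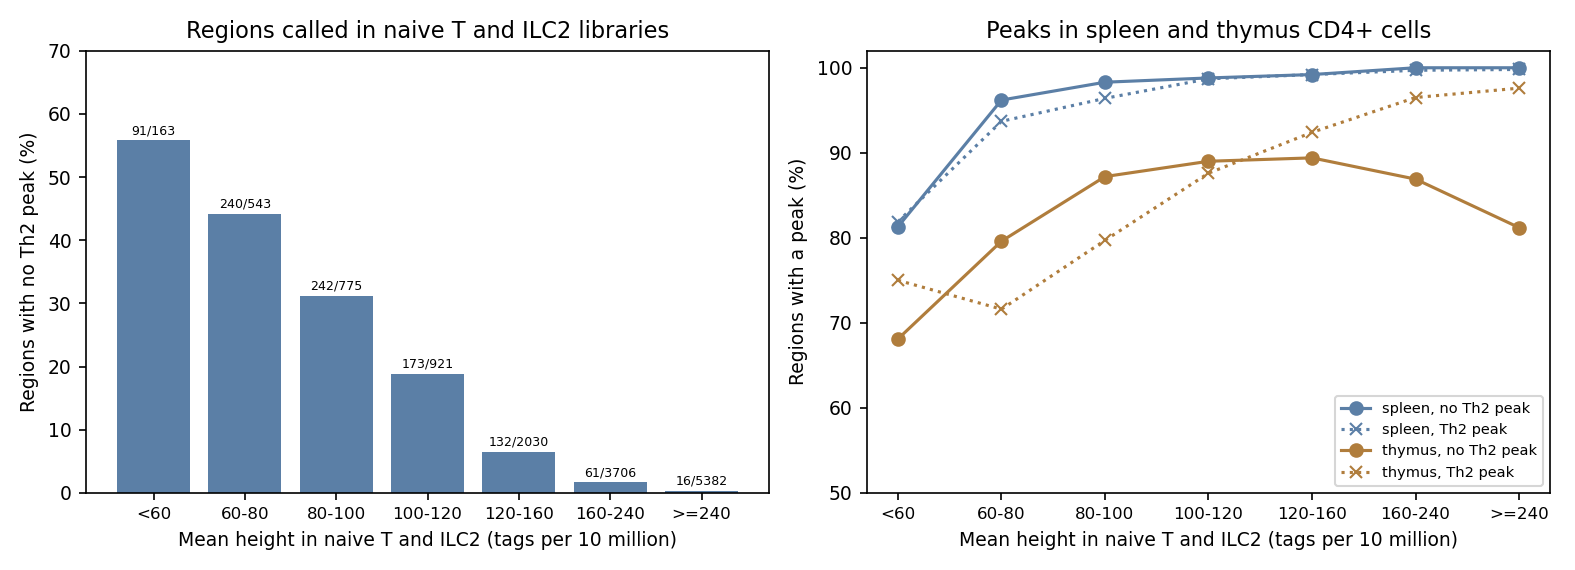
Left, the percentage of regions with no peak in either Th2 library, among regions called in both naive T and both ILC2 libraries, by mean height in those 4 libraries; the labels give members over regions, from 91 of 163 down to 16 of 5382. Right, the percentage of the members (circles) and of the other regions (crosses) with a peak in spleen and thymus CD4+ cells by the same height classes; the axis starts at 50%, and the thymus share of members lies below that of the others under 60 tags and from 120 tags up.

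Th2 heights were lower than those of the other cells also where every library had a peak. At the 11669 regions called in all 6 libraries the Th2 height was a median of 0.675 and 0.695 times the naive T and ILC2 mean. Applied to the members as a description, that ratio would place 84 of the 955 under the Th2 tag minimum of 40.4 tags, all of them in the group near the minimum. It would place 0 of the 624 taller members there, and 231 of them at 2 times the minimum or more. Single regions scatter widely around the median: the ratio of the lavage library ran from 0.35 to 1.13 between the 5th and 95th percentiles. With the ratio at common regions under 160 tags, the number under the minimum was 133. All these ratios come only from regions that passed the Th2 minimum. In the lavage, Th2 heights at regions called in all 6 were a median of 0.76 times those of naive T cells (Spearman 0.91). The taller members had a median of 64.2 tags in that naive T library, and this ratio was not applied to them. The nearest Th2 peak lay a median of 30102 bp from a member. It was within 2500 bp of 17 members and within 10000 bp of 189.

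Heights at the members differed more between the naive T libraries than between the ILC2 libraries. Their median was 56.8 tags in naive T cells of the lavage, 130.8 in those of the lymph node, and 79.8 and 78.8 in the ILC2 libraries of the lavage and the lymph node. The naive T library of the lavage was the lowest of the 4 at 593 members (62.1%), and that of the lymph node the highest at 715 (74.9%). Both height groups showed this order, which is not independent of the choice of members by the absence of Th2 peaks. A lower height can mean fewer marked cells or less of the mark per cell, which cannot be told apart. Among the members near the minimum the 4 medians were 47.6, 89.8, 57.7 and 56.5 tags, and among the taller ones 64.2, 159.5, 99.8 and 93.7.

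**Figure D2:**
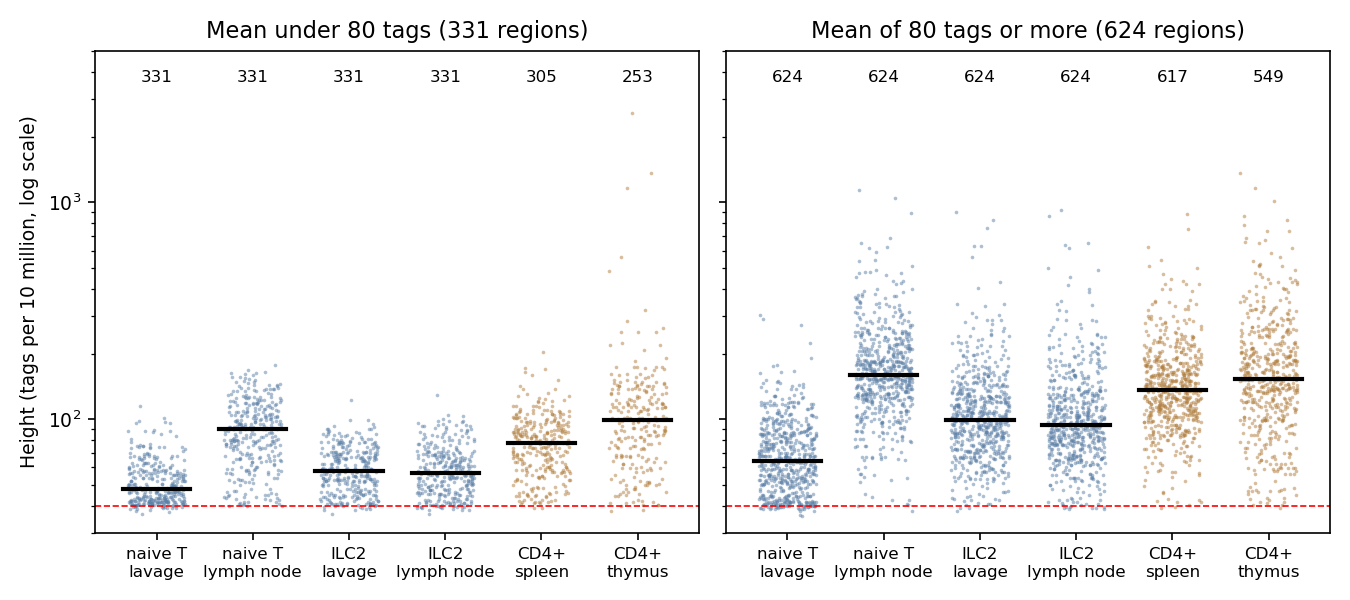
Height of each member in the 4 libraries that chose it and in spleen and thymus CD4+ cells, on a log axis, for members with a mean under 80 tags (left) and of 80 or more (right). Points are regions with a peak, whose number stands above, black bars are medians and the dashed line marks 40 tags; the naive T library of the lavage lies lowest, with medians of 47.6 and 64.2 tags.

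The lymph node library of naive T cells exceeded the lavage library at 889 of the 955 members (93.1%), by a median log2 ratio of 1.10, which is 2.14-fold. At the regions called in all 6 libraries that ratio was 0.45, with the lymph node higher at 81.4%. For ILC2s the lymph node was higher at 44.4% of the members, with a median log2 ratio of -0.04. Each of these is 1 library against 1, and the difference between the 2 cell types was not tested. Members also ranked differently within the naive T pair: the Spearman correlation across members was 0.29, against 0.76 at regions called in all 6, and 0.77 for the ILC2 pair. These correlations share libraries and the common lower limit of the peak lists and are descriptive. At regions called in all 6, Th2 and naive T heights had a Spearman correlation of 0.91 in the lavage. In the lymph node it was 0.67. The members were chosen for having no Th2 peak, so the contrast within the naive T pair is not independent of that choice.

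**Figure D3:**
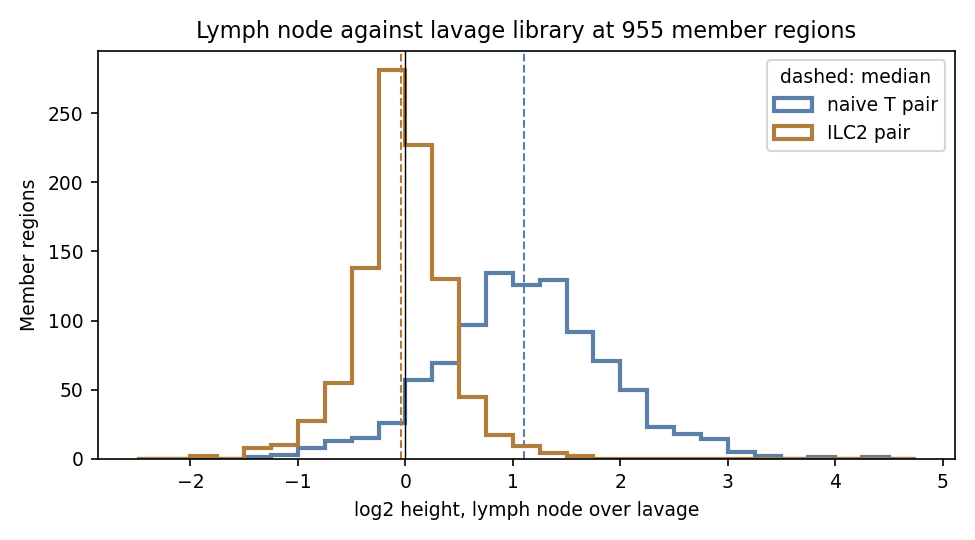
Number of members by the log2 ratio of their height in the lymph node library to that in the lavage library, for naive T cells and ILC2s; dashed lines are the medians of 1.10 and -0.04. The naive T ratios lie mostly above 0 and the ILC2 ratios on both sides of it.

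In a limma fit over the 13520 regions with cell type as a covariate and each library centred on its median, 0 members differed between lymph node and lavage after Benjamini-Hochberg adjustment, as did 0.0% of all regions in either direction. At an unadjusted p under 0.05 there were 44 members (4.61%), 39 higher in the lymph node and 5 lower, against 1.66% of all regions. Without centring, which leaves the lymph node library of naive T cells 0.48 log2 units above that of the lavage at the median region, 6 members were higher in the lymph node and 0 lower, against 0.104% and 0.0444% of all regions.

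The 12 tallest members fell into visibly different patterns, which the choice by height does not test. The 3 tallest were highest in ILC2s. The region over Irs2, which encodes an adaptor of the insulin receptor and whose promoter is printed above (chr8:10998547-11011146), reached 47.6 tags in naive T cells of the lavage, 358.3 in those of the lymph node, and 904.0 and 636.0 in ILC2s. It had 299.7 tags in the spleen and 425.0 in the thymus. Both ILC2 libraries exceeded both naive T libraries, and the naive T library of the lavage lay close to the tag minimum.

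The tallest member of all lay over Cask, which encodes a membrane scaffold kinase (chrX:13622516-13634058). It had 40.1 and 282.4 tags in the naive T libraries, against 832.6 and 922.0 in the ILC2 libraries, with 212.6 in the spleen and no thymus peak. The next, with no gene within 100 kb (chrX:19154165-19169615), had 45.6 (lavage) and 295.8 tags (lymph node) in naive T cells, while ILC2s had 761.7 and 867.7. Both lie on the X chromosome, and the ILC2 libraries differ from the others in their X- and Y-linked marker genes.

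A pair of the other tall members was also highest in ILC2s. The region over the promoter of Vipr2, a receptor for vasoactive intestinal peptide (chr12:116072632-116081631), had 37.6 and 133.7 tags in the naive T libraries, against 629.4 and 647.4 in the ILC2 libraries. The region over Pde7b, a phosphodiesterase that breaks down cyclic AMP (chr10:20717476-20726253), had 46.8 (lavage) and 130.8 tags (lymph node) in naive T cells, while ILC2s had 561.2 and 500.6. In both, every ILC2 library stood above every naive T library.

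At other tall members the lymph node library of naive T cells was the highest of the naive T and ILC2 libraries. Tnfrsf1a encodes the first receptor for tumour necrosis factor, and its region (chr6:125348309-125356589) had 301.8 and 1050.6 tags in the naive T libraries, against 88.6 and 39.9 in the ILC2 libraries. Spleen and thymus were high there too, at 887.1 and 1361.6 tags. Galnt10, which encodes an enzyme that starts O-linked glycosylation, had 52.7 (lavage) and 1142.0 tags (lymph node) in naive T cells, while ILC2s had 127.5 and 176.1 (chr11:57660175-57676581). Scml4, of a family related to Polycomb proteins, had 98.6 and 895.8 tags in the naive T libraries, against 121.1 and 155.5 in the ILC2 libraries (chr10:42892735-42904929). The lavage library of naive T cells lay below both ILC2 libraries at Galnt10 and Scml4, and above both at Tnfrsf1a.

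The rest of the 12, apart from Rnf128, stood at 230.0 tags or more in both ILC2 libraries and in naive T cells of the lymph node. The region over Txnrd1, a thioredoxin reductase, had 52.7 (lavage) and 479.0 tags (lymph node) in naive T cells, while ILC2s had 265.0 and 415.2. The region over Tgfbr2, the ligand-binding receptor for TGF-beta, had 164.7 and 462.3 tags in the naive T libraries, against 341.9 and 230.0 in the ILC2 libraries. The region over the promoter of Fat4, a large protocadherin, had 49.7 (lavage) and 486.7 tags (lymph node) in naive T cells, while ILC2s had 307.5 and 286.5. At all 3 the naive T libraries lay on either side of both ILC2 libraries.

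**Figure D4:**
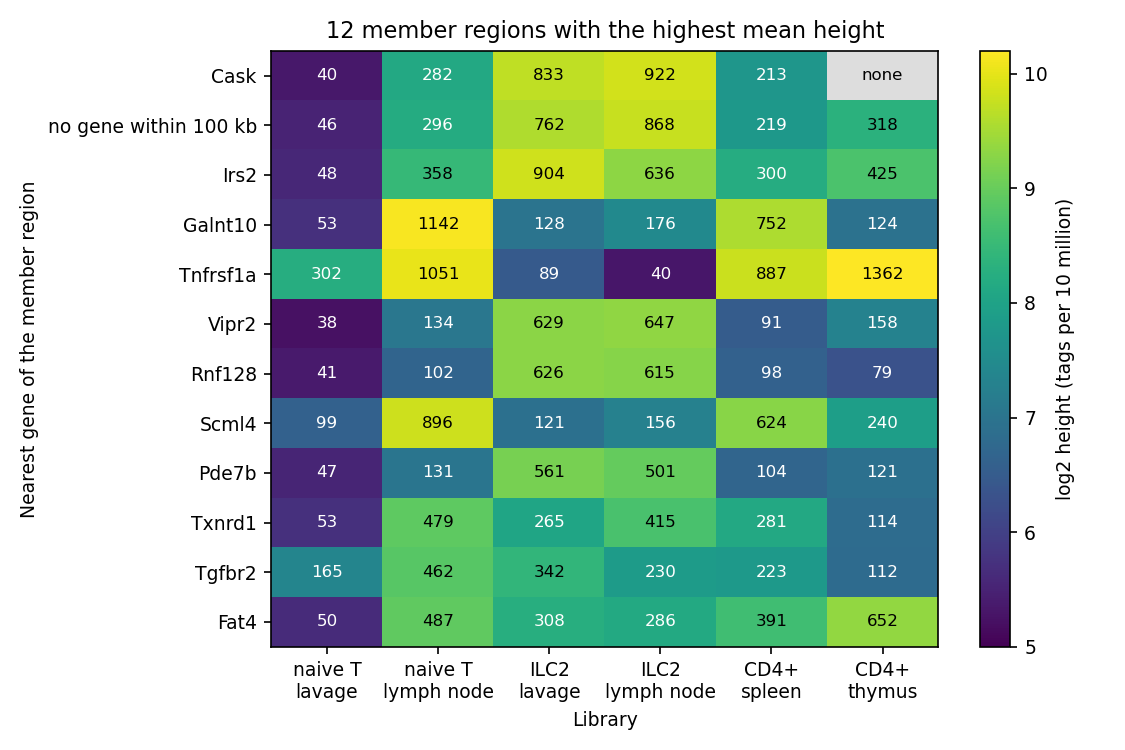
Height, in tags per 10000000, of the 12 members with the highest mean over the naive T and ILC2 libraries, in those libraries and in spleen and thymus CD4+ cells; colour is log2 height and grey is no peak. Cask, the region with no gene, Irs2, Vipr2, Rnf128 and Pde7b are highest in ILC2s, and Galnt10 and Scml4 in the lymph node library of naive T cells, where Galnt10 reaches 1142.0 tags.

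Comparing ILC2s with naive T cells across libraries, 9 members were higher in ILC2s and 0 lower by limma at an adjusted p under 0.05, where 0.791% of the 13520 regions were higher and 0.422% lower. At an unadjusted p under 0.05 there were 125 members higher and 66 lower, together 20% of them, against 16.6% of all regions. The 9 members are 0.942% of the 955, close to the share over all regions. The region over Phf21a, which encodes a subunit of a histone demethylase complex (chr2:92271445-92274678), had 40.1 and 56.1 tags in the naive T libraries, against 287.0 and 264.1 in the ILC2 libraries. Its log2 difference was 2.72 (SE 0.15, limma adjusted p = 0.037).

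The cell survival gene Bcl2 carried another of the 9. Its region (chr1:106565349-106572030) had 65.6 (lavage) and 74.8 tags (lymph node) in naive T cells, while ILC2s had 341.5 and 486.6, a log2 difference of 2.73 (SE 0.24, limma adjusted p = 0.041). The region over Lyn, a Src family kinase, had 39.3 and 53.6 tags in the naive T libraries, against 255.0 and 190.5 in the ILC2 libraries, a log2 difference of 2.45 (SE 0.21, limma adjusted p = 0.041). Rnf128, a ubiquitin ligase linked to T cell anergy, had 41.4 (lavage) and 101.6 tags (lymph node) in naive T cells, while ILC2s had 626.2 and 615.0, with a log2 difference of 3.45 (SE 0.32, limma adjusted p = 0.044). The groups did not overlap at any of these regions. In the lavage, naive T cells had 40.1 tags at Phf21a, 39.3 at Lyn and 41.4 at Rnf128, close to the tag minimum of 40.1 in that library. At Bcl2 they had 65.6. A member had to have a peak in both naive T libraries, so heights near the minimum were limited from below. The effect of this limit on the SEs and p-values was not tested.

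The peptide transporter gene Slc15a1 (log2 difference 2.21), Morc1 (1.79), Zc2hc1a (1.80), the tyrosine kinase gene Fes (2.16) and a region 36882 bp outside the transcription factor gene Klf4 (1.60) made up the rest, with limma adjusted p between 0.04 and 0.05. Naive T cells of the lavage had 40.1 tags at Zc2hc1a and Fes, 41.0 at Morc1 and 41.4 near Klf4, again close to the tag minimum. At Slc15a1 they had 51.4. Of the 9, only Rnf128 lies on the X chromosome, so 8 were called among the 903 members elsewhere. The calls depended on single libraries, and fits that leave 1 library of a cell type are described by log2 differences alone. Without the lavage and then the lymph node library of ILC2s, the log2 difference was 2.64 and 2.81 at Phf21a. It was 2.96 and 2.50 at Bcl2 and 2.22 and 2.68 at Lyn. With a replicate block 0 were called, and the smallest limma adjusted p among the members was 0.13. With summed peaks 5 were higher and 0 lower, against 0.392% and 0.237% of all regions, and without centring 12 and 1, against 0.939% and 0.762%. Per kb of peak length the log2 differences were 1.28 at Phf21a, 0.75 at Bcl2, 0.85 at Lyn and 0.76 at Slc15a1, with limma adjusted p of 0.15 to 0.28. Without the lavage library of naive T cells 115 members were higher and 224 lower, against 15.3% and 10.9% of all regions. Without that of the lymph node 222 were higher and 35 lower, against 9.24% and 5.68%.

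Both ILC2 libraries stood above both naive T libraries at 131 members (13.7%), close to the 14.1% over all 13520 regions. Both lay below at 175 members (18.3%), against 30.6% over all regions. At the 52 members on the X chromosome the medians were 63.1 and 127.2 tags in the naive T libraries, against 64.7 and 70.3 in the ILC2 libraries. At the 903 members on other chromosomes they were 56.0 and 131.6, against 81.4 and 79.3. The ILC2 libraries also differ from the others in their X- and Y-linked marker genes.

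Most members were also called in CD4+ cells from outside the airways. A spleen peak was present at 922 (96.5%), against 99.1% of the 13520 regions, and a thymus peak at 802 (84.0%), against 93.6%. Among members near the minimum the shares were 92.1% in spleen and 76.4% in thymus, and among other regions of that height with a Th2 peak they were 91.5% and 72.3%. Among the taller members they were 98.9% and 88.0%, against 99.5% and 95%. With 1 library each there is no test. At equal height the order of the thymus shares of members and other regions changed. It was 68.1% against 75% under 60 tags, 79.6% against 71.6% from 60 to 80, 87.2% against 79.7% from 80 to 100 and 89.0% against 87.6% from 100 to 120. From 120 to 160 tags it was 89.4% against 92.4%, from 160 to 240 it was 86.9% against 96.5%, and from 240 up 81.2% against 97.6%, where 13 of 16 members had a thymus peak. The spleen shares of members and others lay within 3 percentage points of each other in every class.

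At the members, spleen heights followed the lymph node library of naive T cells more closely than that of the lavage. At the 922 members with a spleen peak the median log2 ratio of spleen to the lymph node library was -0.25, with a Spearman correlation of 0.94 across members. The correlation with the lavage library was 0.29, with spleen higher at 90.5% of members by a median log2 ratio of 0.87, and with the ILC2 library of the lymph node it was 0.27. At regions called in all 6 libraries the first of these correlations was 0.98 and the second 0.78. The lavage heights of naive T cells at the members lay near the tag minimum, with a median of 56.8 tags. The choice of members by the absence of Th2 peaks is not independent of those heights, so the low correlation is descriptive.

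**Figure D5:**
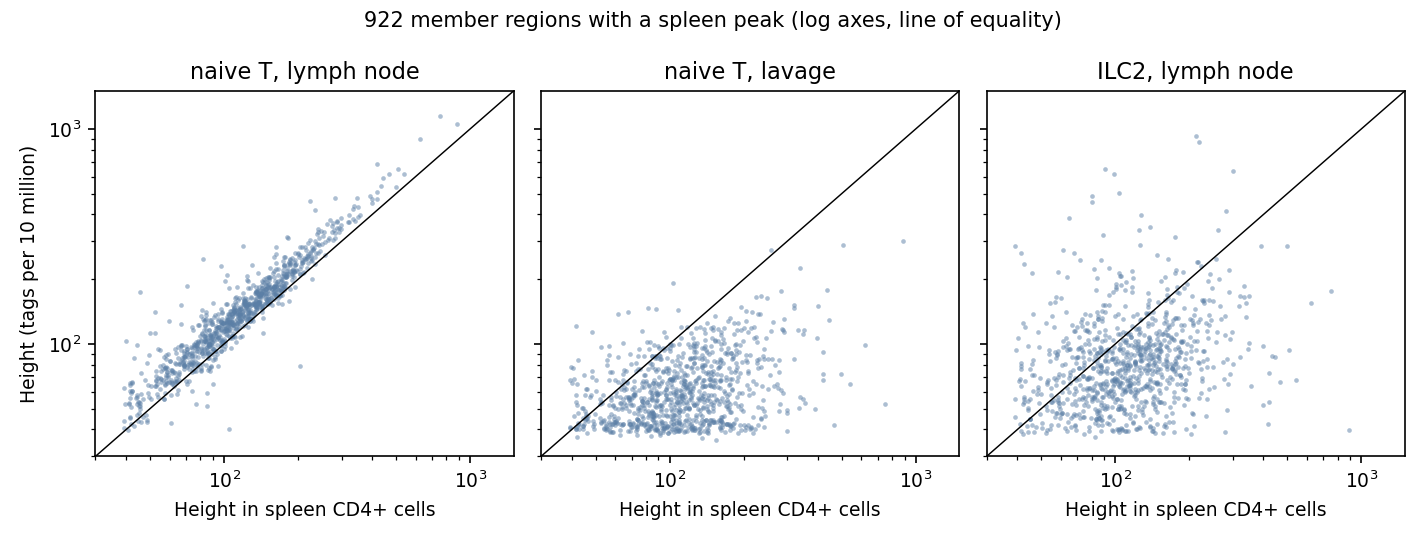
Height of each of the 922 members with a spleen peak in spleen CD4+ cells (x axis) against its height in naive T cells of the lymph node, naive T cells of the lavage and ILC2s of the lymph node (y axes), in tags per 10000000 on log axes with the line of equality. Points follow the line for the lymph node library of naive T cells (Spearman 0.94) and scatter for the lavage library (0.29).

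The spleen, thymus and gene start shares can be set out by the library in which a member was highest. Of the 218 highest in ILC2s, 88.1% had a spleen peak, 61.5% a thymus peak and 24.3% held a gene start. Of the 715 highest in naive T cells of the lymph node the shares were 99.3%, 91.6% and 42.2%. The split was made on heights, and its shares are given with no test.

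There were 22 members (2.3%) with neither a spleen nor a thymus peak, against 0.517% of the other regions. Of these 18 were near the minimum, 5.44% of the members there against 5.07% of the others. The 4 taller ones lay over Fes, Usp47, a ubiquitin protease gene, Gpbp1 and Nedd4, a ubiquitin ligase gene. At Fes (chr7:80386105-80389432) the heights were 40.1 (lavage) and 43.9 tags (lymph node) in naive T cells, while ILC2s had 144.3 and 189.2. At Nedd4 they were 40.5 and 42.3 tags in the naive T libraries, against 135.5 and 134.5 in the ILC2 libraries. All 4 had naive T heights of 37.8 to 54.0 tags, at or near the minimum.

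Spleen without thymus was seen at 131 members (13.7%), against 5.12% of the other regions. Near the minimum it was 18.1% of members against 22.7% of the others, and among taller regions 11.4% against 4.58%. All 4 members over Bcl2, the most of any gene, were among them. Beside the one above, the tallest of them (chr1:106598754-106603684) had 85.3 (lavage) and 360.8 tags (lymph node) in naive T cells, while ILC2s had 242.1 and 337.7. Another had 41.8 and 253.1 tags in the naive T libraries, against 186.8 and 214.6 in the ILC2 libraries, and the last 58.5 and 89.8 and then 138.3 and 244.4. In the last both ILC2 libraries stood above both naive T libraries, and the 4 regions lie within 1 gene and are not independent. Irak3, an inhibitor of interleukin 1 and Toll-like receptor signalling, had 101.1 (lavage) and 70.7 tags (lymph node) in naive T cells, while ILC2s had 402.5 and 385.0. Its spleen peak had 64.8 tags, and both ILC2 libraries stood above all others.

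Thymus without spleen was seen at 11 members (1.15%), against 0.239% of the other regions. Of these 8 were near the minimum, 2.42% of the members there against 3.47% of the others. Among taller regions the shares were 0.481% and 0.139%. The tallest of the 11 lay over or near Lyn, Frs2, Klf4 and Gm2a. Some members were far taller in the thymus than in any other library, chosen here after their values were seen. A region 28740 bp from Mns1 (chr9:72407481-72409081) had 2592.4 tags in the thymus against 87.2 in the spleen and 40.1, 116.6, 76.6 and 62.2 in the naive T and ILC2 libraries. A region over Ip6k2, an inositol phosphate kinase gene, had 1359.0 tags in the thymus and 89.0 in the spleen.

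Gene starts were looked for in each member. Of the 926 members on chromosomes with promoter windows 348 held one, a share of 37.6% (exact binomial 95% interval 34.5 to 40.8%, counting error only), against 62.0% of all 13176 such regions. The share was 26.2% near the minimum and 43.6% among the taller members. Under a mean of 160 tags the shares were closer, at 36.9% for members and 44.6% for the others. A gene interval was overlapped by 711 members (74.5%), and 30 had no gene within 100 kb. Members were shorter, with a median of 2259 bp against 3618.5 bp. On the X chromosome lay 5.45% of the members and 1.81% of the other regions, and 5.47% and 4.05% of those under 160 tags.

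Thymus peaks were also counted at and away from gene starts. Among the taller members 96.6% of those with a gene start had one and 80.7% of those without, and near the minimum 92.9% and 69.9%. For members away from a start, the start of the nearest gene was looked up in Th2 cells. Of 361 such genes with a promoter window, 169 (46.8%) had that start called in both Th2 libraries, against 1073 of 1769 (60.7%) for the other regions away from starts.

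The promoter windows in members, 454 of 394 genes, were searched for the 5 motifs. Their median GC content was 62.8%, against 61.3% in the windows of the other regions and 52.7% in all 32851 windows, and their median number of CG dinucleotides was 19.5, against 22 and 7. The GC box, as in the windows of Irs2, Vipr2 and Rnf128 above, was present in 68.7% of member windows, 65.0% of the others and 35.7% of all. The ETS motif, present in the Tnfrsf1a window, was in 70 member windows (15.4%), 34.4% of the others and 16.9% of all. Under 160 tags these shares were 14.8% and 28.4%. GATA, RUNX and TCF and LEF motifs were in 7.93%, 13.0% and 11.9% of member windows, 5.91%, 12.2% and 11.6% of the others, and 11.2%, 16.8% and 16.0% of all. A match is a description of these letters and not a binding site.

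Gene lists relevant to these cells held few members, and the share of each is read against the 7.06% of all regions called in naive T cells and ILC2s. Genes of naive and central T cells had 3 members of 63 regions (4.76%), and T cell receptor signalling genes 3 of 63. The tallest of the former lay over Actn1, a crosslinker of actin, with 128.7 and 591.9 tags in the naive T libraries, against 117.1 and 87.2 in the ILC2 libraries and 443.8 in the spleen. A region 34677 bp outside Tcf7, a transcription factor of naive T cells and innate lymphoid precursors, had 60.6 (lavage) and 206.0 tags (lymph node) in naive T cells, while ILC2s had 41.3 and 51.2. Over Cd96, a receptor of the immunoglobulin family, the heights were 84.4 and 363.2 tags in the naive T libraries, against 71.0 and 109.9 in the ILC2 libraries.

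Genes of Th1 and cytotoxic cells had 3 members of 28 regions (10.7%). The region over Eomes, a T-box factor of cytotoxic cells, had 79.8 (lavage) and 376.6 tags (lymph node) in naive T cells, while ILC2s had 175.2 and 130.1, with 4 promoter windows in the region. Th2 cells did have peaks within 2 kb of the Eomes gene, of 153.3 (lavage) and 101.9 tags (lymph node), outside this region. Stat4, the transducer of interleukin 12, had 273.3 and 297.0 tags in the naive T libraries, against 61.3 and 102.1 in the ILC2 libraries. Runx3 had a region 39163 bp away with 95.7 (lavage) and 121.9 tags (lymph node) in naive T cells, while ILC2s had 87.8 and 39.4. At Stat4 and Runx3 both naive T libraries exceeded both ILC2 libraries, and at Eomes they lay on either side. The nearest Th2 peak lay 7044 bp from the Eomes region, 1867 bp from that of Stat4 and 11579 bp from that of Runx3. The absence of a Th2 peak thus concerns these regions and not the whole genes.

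Regulatory T cell and TGF-beta genes had 3 members of 41 regions (7.32%), of which 2 lay over Tgfbr2. The second of these had 94.5 and 329.9 tags in the naive T libraries, against 185.2 and 160.8 in the ILC2 libraries. Ski, a repressor of TGF-beta signalling, had 163.4 (lavage) and 334.8 tags (lymph node) in naive T cells, while ILC2s had 151.1 and 157.7. It had no thymus peak. Notch, Ikaros and Runx factor genes had 5 members of 71 regions (7.04%). Among them Lmo4, a LIM-domain cofactor gene 24254 bp from its region, had 40.1 and 98.3 tags in the naive T libraries, against 274.2 and 320.6 in the ILC2 libraries, and Ikzf1, the Ikaros gene, 60.6 (lavage) and 164.9 tags (lymph node) in naive T cells, while ILC2s had 44.1 and 79.7.

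ILC2 genes had 2 members of 53 regions (Vipr2 and Tcf7), and type 2 cytokine genes 1 of 34, near Lif, with 67.3 and 154.8 tags in the naive T libraries, against 79.4 and 78.0 in the ILC2 libraries. Chemokine receptor and migration genes had 2 of 60, both near Rgs3, cytokine receptor and JAK-STAT genes 1 of 57 and activation genes 1 of 68. Follicular helper, Th17, epithelial and housekeeping genes had 0 members of 18, 6, 2 and 19 regions.

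Lists of other cell types had few regions in all. B cell genes had 1 member of 2 regions (Spib), macrophage and neutrophil genes 2 of 6 (Spi1 and Cebpa), eosinophil and mast cell genes 1 of 3 (Cpa3) and natural killer cell genes 2 of 5 (Eomes and Klra8). Over Spi1, a myeloid and B cell transcription factor, the heights were 45.1 (lavage) and 300.6 tags (lymph node) in naive T cells, while ILC2s had 66.1 and 78.0. Over Cpa3, a mast cell protease gene, they were 52.7 and 233.6 tags in the naive T libraries, against 107.8 and 131.8 in the ILC2 libraries. Eomes and Cpa3 are also among the markers of their cell types. The B cell marker Cd79a had a peak in every library, of 498.7 to 1391.9 tags, and the macrophage marker Cd68 one of 124.3 to 193.6. Pax5 and Ebf1, factors of B cell development, had peaks of 53.9 to 116.3 tags in both ILC2 libraries. In the spleen and thymus libraries both had peaks too, of 48.9 to 100.3 tags. Ebf1 also had one of 88.2 tags in the lymph node library of naive T cells. The markers Ms4a1, Lyz2, Csf1r, Siglecf, Epx, Ncr1 and Klrb1c had no peak in any library. Summed marker heights in the naive T and ILC2 libraries were 751.2 to 1480.1 tags for 4 B cell markers (Cd79a, Ms4a1, Pax5 and Ebf1), 124.3 to 233.6 for the 5 macrophage and neutrophil markers, 52.7 to 321.9 for the 4 eosinophil and mast cell markers and 186.8 to 376.6 for the 3 natural killer cell markers.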

How the data were processed

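The data are 8 lists of H3K4me2 peaks from mouse lymphocytes. Per the labels' protocols, libraries were made with Nextera transposase. The submitters' processing notes name Bowtie, HOMER and mm10 without versions. Each library had its own findPeaks run, per the file headers, with a false discovery rate of 0.001, at least 4-fold more tags than IgG and a minimum of 39.9 to 40.4 tags per 10000000. The deposited signal is a normalized tag count per peak, scaled by the authors to 10000000 tags. The deposited fold change is the authors' ratio of tags over IgG, with the thymus IgG as background for all lists except that of the spleen. A region missing from a list failed the minimum or another criterion and may still hold signal. The IgG libraries' own files were not used here, and the labels give them the H3K4me2 antibody.

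Peaks of the 6 airway libraries were merged within 500 bp with Python 3.11.15, and a spleen or thymus peak counted within the same distance. The height of a region is the tallest peak, and heights were compared by limma 3.58.1 in R 4.3.3 on log2 values centred on the library medians, with Benjamini-Hochberg adjustment over 13520 regions at 0.05. The fit was tested on simulated data. Because a member must pass the tag minimum in all 4 libraries, its heights are limited from below. Genes and promoter windows are from RefSeq on GRCm38.p6, which has the coordinates of mm10; no promoter window was used on chromosome 18. Of 363 listed genes 362 were in the annotation. The members and the lists were chosen with earlier results of these data known. Members were named as the 12 tallest, those called between cell types (up to 6 by adjusted p in each direction, with the other 3 added), the 4 tallest of each spleen and thymus pattern, the tallest of each list, those of genes with the most members, and those next to 80 tags. Libraries numbered 1 are lavage and those numbered 2 lymph node, so the number is also the site. Alternatives were the merging distance, tag minimum, excess over IgG, equal peak numbers, height measure, centring, variance trend and leaving out each library. The result of 1 marker is not reported here.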

Additional observations from a re-analysis of the deposited data

Results flagged for a closer look

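The members differed between the naive T and ILC2 pairs in the contrast of lymph node with lavage. The median log2 ratio of lymph node to lavage height was 1.10 in naive T cells and -0.04 in ILC2s, each from 1 library against 1. The difference was noted because the naive T ratios pointed one way and the ILC2 ratios did not, and it was not tested. At regions called in all 6 libraries the naive T ratio was 0.45. The choice of members by the absence of Th2 peaks is not independent of the naive T heights.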

How the results depend on the processing

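The 955 members, their heights and their shares moved little when only overlapping peaks were merged, when peaks were merged within 1000 bp (957 members), with an 8-fold excess over IgG (960) or with no Th2 peak within 2500 bp (938). With at least 60 tags in all lists there were 1035 members, 991 of them taller, with shares of 99.9% in spleen, 90.9% in thymus and 50.6% at gene starts. With equal peak numbers there were 123, all taller, with a median height of 136 tags and shares of 100%, 94.3% and 57.8%. With every naive T and ILC2 library at 80 or more there were 96, all taller, with a median of 136 tags and shares of 100%, 86.5% and 51.6%. With the scaled tag minimum there were 481, with shares of 100%, 89.6% and 46.6%.

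Leaving out each library gave 1036 to 2507 members, 498 to 1569 of them taller, with shares of 82.0 to 96.9% in spleen, 72.2 to 85.4% in thymus and 30.5 to 41.3% at gene starts, and median heights of 75 to 98.1 tags. The number of members with an implied Th2 level under the minimum was 79 to 91 without either Th2 library, and 133 with the ratio of common regions under 160 tags.

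In the cell type comparison, members higher in ILC2s numbered 5 with summed peaks (53 of all regions), 0 per kb of peak length (0 of all regions) and 0 to 222 with a library left out, and members lower 0 to 224. Without centring 12 members were higher and 1 lower in ILC2s (127 and 103 of all regions), and 6 were higher in the lymph node (14 of all regions). With the replicate block 0 members were higher in ILC2s, as were 0 of all regions. Naive T and ILC2 libraries of the same number deviated with a correlation of -0.059 across regions. As the number is the site, this correlation cannot decide whether site belongs in the fit. The main cell type fit had no site term, so its spread is the difference between lymph node and lavage libraries. Whether animals were shared is not given. No leave-one-out value exists for the site fit, which would have no residual degrees of freedom. Without chromosome X, an alternative added after seeing the data, there were 903 members and 8 were higher in ILC2s. The cause of these changes was not tested. With 2 libraries per cell type, 1 per site, the depth of the Th2 libraries and the tag minimum limit what absence from a list can show.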
